A study of Mus musculus with 4 samples.

Results

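Genes of cytokine receptors were compared between mouse peritoneal macrophages kept overnight with TGFb2, a transforming growth factor beta isoform, and macrophages kept with PBS as its vehicle. The members were taken as every probe set whose gene symbol in the platform annotation is exactly 1 of 36 listed receptor genes, and 33 of the 36 genes were held, by 48 of the 12488 probe sets of the array; 8251 genes are named in this way in all. Il2rg, Il1rl1 and Il11ra1 were not analysed here. Each group held 2 arrays, TGFb2 replicates 1 and 2 and PBS replicates 1 and 2. The TGFb2 cultures received the porcine cytokine (5 ng, with no volume stated) and the PBS cultures the vehicle alone. Donors in both groups were female BALB/c mice, 6 to 8 weeks old, given 2 ml of 3% thioglycolate into the peritoneal cavity to draw in macrophages. Exudate cells were taken 4 days afterwards, and the overnight culture was without serum. The adherent fraction, over 95% F4/80+ according to the labels, gave the RNA. Nothing in the labels says that the 2 replicates of a group are separate cultures or mice. The p-values therefore reflect the spread of these 4 arrays alone, and that spread may be technical.

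Cytokine receptors decide which soluble signals a macrophage can answer. Class I receptors, which bind most interleukins and the colony-stimulating factors, and class II receptors, which bind interferons and interleukin 10, carry Janus kinases on their cytoplasmic tails, and these kinases activate STAT transcription factors when ligand joins the chains. Receptors of the interleukin 1 family signal through the adaptor Myd88, the interleukin 17 receptor signals through the adaptor Traf3ip2, and the receptor for macrophage colony-stimulating factor, Csf1r, is a tyrosine kinase itself. Many of the chains are shared, so that the level of 1 chain can bear on the response to several cytokines.

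The values were the deposited MAS5 signals, background-corrected intensities on a linear scale. A probe set was called dim where its mean over the 4 arrays, taken on the log2(signal + 15) scale, lay below the 40th percentile of all probe sets, a signal of about 24.0, and dim probe sets were not tested. Of the 48 receptor probe sets, 29 were tested and 19 were dim. The 29 represented 23 genes, and the other 10 genes had dim probe sets alone. Just inside the level were Il2rb (25.8) and a probe set of Il4ra (25.8), and just outside were 1 probe set each of Lifr (17.3) and Il1r2 (17.1). Signals of different probe sets are not comparable with each other as amounts of RNA, so each is compared here between arrays alone. Sums of signals over marker genes are likewise compared between arrays alone, and their brightest probe sets weigh most. Where a gene has several probe sets they are numbered in the order of the plot of signals, which gives their identifiers.

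The arrays had median signals of 45.6 and 40.1 for TGFb2 and of 43.5 and 40.55 for PBS, and the correlation of log2 values was 0.968 for the TGFb2 pair and 0.979 for the PBS pair. Macrophage markers were present on every array: all 8 measured were above the level, and their summed signal was 15503 to 15864 on the TGFb2 arrays and 14462 to 15061 on the PBS arrays. Cd68 and Lyz2 gave most of this sum, which hides differences of fainter markers. Fcgr1 (log2 difference 1.13), Mertk (0.78) and Itgam (0.73) were higher with TGFb2 and Mrc1 (-0.47) was lower. In limma 0 of the 8 passed. Of the markers of other cells, all 3 of eosinophils, all 5 of NK cells, 7 of 8 of T cells and 5 of 7 of neutrophils were dim. B-cell markers summed to 417.3 to 475.9 on the TGFb2 arrays and 396.6 to 414.4 on the PBS arrays, and mast-cell markers to 388.6 to 554.6 on the TGFb2 arrays and 403.9 to 424.3 on the PBS arrays. Dendritic-cell markers summed to 1202 to 1349 on the TGFb2 arrays and 1205 to 1220 on the PBS arrays. Fibroblast and mesothelial markers summed to 1527 to 1746 on the TGFb2 arrays and 1644 to 2371 on the PBS arrays, and of their 8 tested genes 1 rose (Col1a1) and 1 fell (Dcn) in limma; their part in the receptor values was not tested. In bulk RNA, fewer cells of a type and less RNA per cell cannot be told apart. The tested receptor probe sets differed between arrays of 1 group by a median of 0.31 (log2) for TGFb2 and 0.24 for PBS, against 0.24 for TGFb2 and 0.19 for PBS over all tested probe sets.

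Of the tested receptor probe sets 2 were higher with TGFb2, 1 each of the granulocyte colony-stimulating factor receptor Csf3r and the interleukin 17 receptor subunit Il17ra. Of the 29 tested receptor probe sets, 2 rose, 0 fell and 27 did not pass an adjusted p of 0.05 in limma, fitted over all 7453 tested probe sets. The called share was 6.9% for the receptors and 1.18% for all tested probe sets (0.818% higher and 0.362% lower), a difference that rests on 2 probe sets. The median receptor probe set differed by 0.03 on the log2 scale, against -0.00082 over all tested, and 17 of the 29 (58.6%) differed by less than 0.2, against 51.6% of all tested. Of the 23 tested receptor genes, 12 had every tested probe set within 0.2. The groups did not overlap for 8 of the 29 (27.6%), 6 with TGFb2 above PBS and 2 with TGFb2 below, where 42.8% of all tested probe sets had no overlap (21.1% above and 21.7% below). All 8 also differed by at least 0.4, so 27.6% of the 29 met both conditions, against 16.0% of all tested probe sets. The 8 stand for 7 genes, as both probe sets of Il17ra are among them. They include Il2rb, whose PBS mean was below the dim level, so it was tested through the TGFb2 arrays. The number called depended on single arrays. It was 1 without either PBS replicate and 0 without either TGFb2 replicate.

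**Figure D1:**
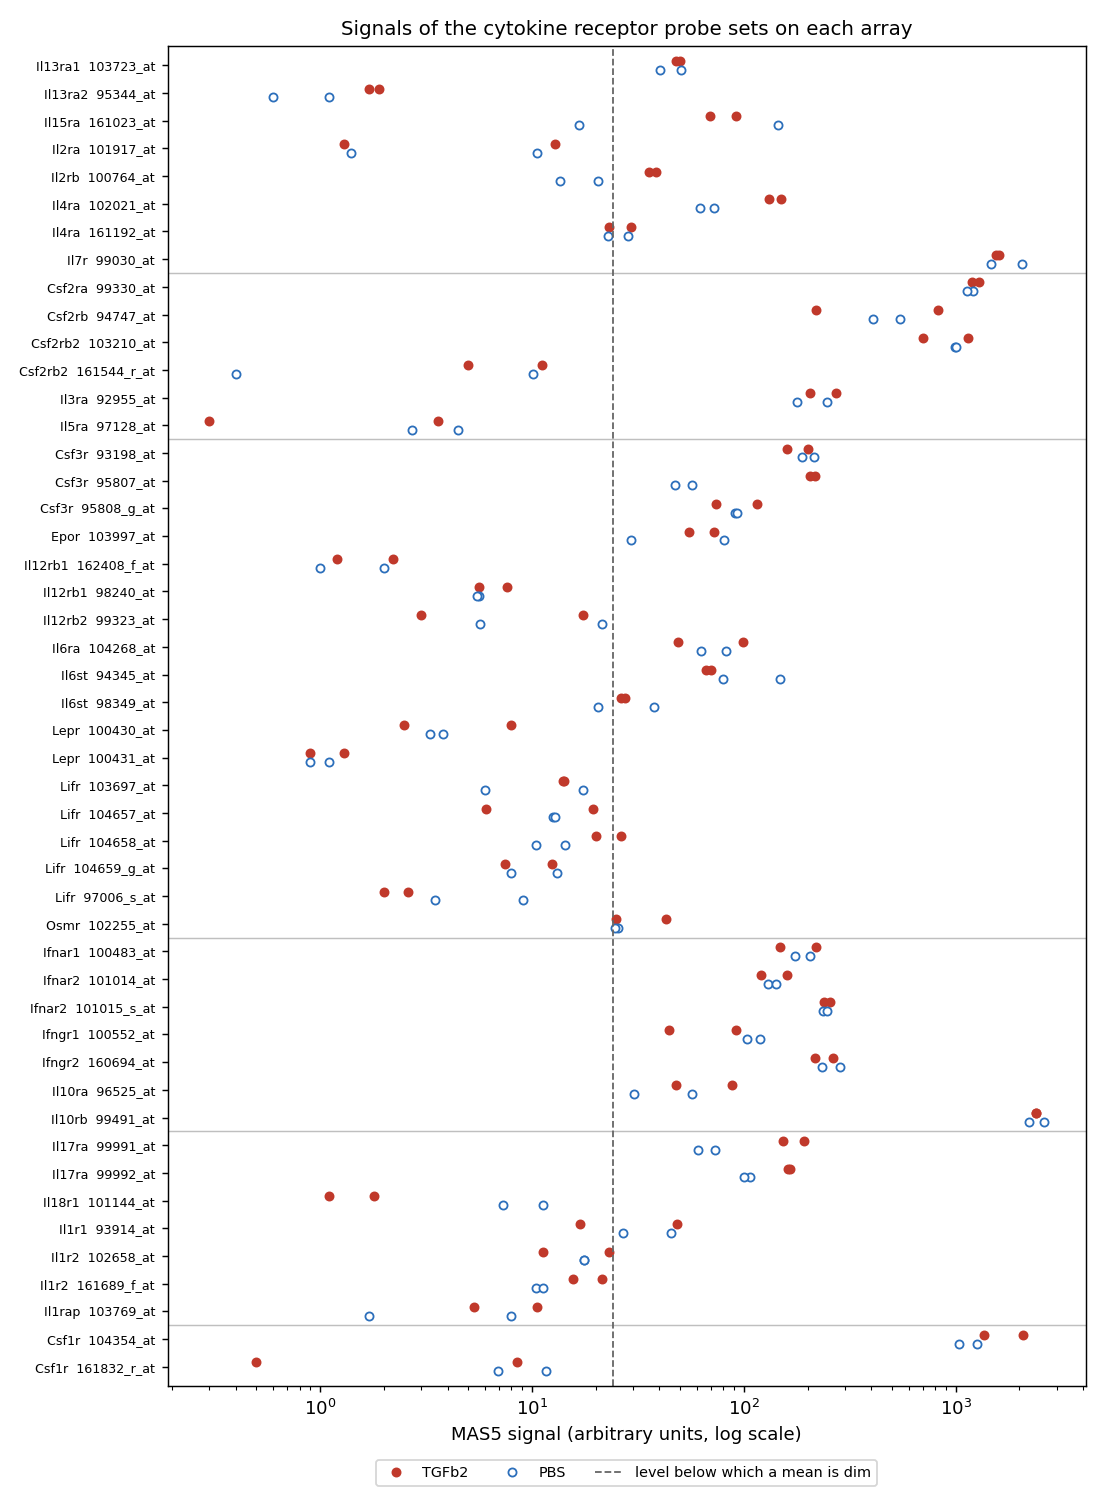
MAS5 signal (horizontal, log scale) of each of the 48 receptor probe sets (rows, grouped by receptor class) on the 4 arrays, with TGFb2 arrays as filled circles and PBS arrays as open circles. The dashed line is the signal of 24.0 below which a mean is dim, and 19 of the 48 rows have their mean below it.

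The interleukin 17 receptor subunit Il17ra, the signalling chain for interleukins 17A and 17F, was higher with TGFb2 in both of its probe sets, of which 1 passed. The first probe set had signals of 152.6 and 192.8 on the TGFb2 arrays, against 73.5 and 60.9 on the PBS arrays. The second had 165.6 and 162.2 on the TGFb2 arrays, against 106.9 and 100.3 on the PBS arrays. In both probe sets each TGFb2 array lay above each PBS array. The first rose by 1.19 ± 0.20 (SE, limma adjusted p = 0.0456) on the log2(signal + 15) scale, a 2.28-fold change on that scale. The second differed by 0.59 ± 0.17 with a 95% interval of 0.19 to 1.00 (limma adjusted p = 0.22), which does not pass. The call of the first was lost without any 1 of the 4 arrays (limma adjusted p = 0.094 to 0.20), and the mean of both probe sets did not pass (0.89, limma adjusted p = 0.058). Of the other interleukin 1 and 17 receptors among the 36 listed genes, only Il1r1 was tested. Il1r1, the signalling receptor for interleukin 1, had 48.5 and 16.9 on the TGFb2 arrays and 45.5 and 26.8 on the PBS arrays, so the groups overlapped. Il1rap, the accessory chain that interleukin 1 receptors need to signal, and Il1r2, the decoy receptor without a signalling domain, were dim. Il1rap had 10.6 and 5.3 on the TGFb2 arrays and 1.7 and 8.0 on the PBS arrays. The first probe set of Il1r2 had 23.2 and 11.3 on the TGFb2 arrays and 17.6 and 17.6 on the PBS arrays, and the second had 21.4 and 15.6 on the TGFb2 arrays and 10.5 and 11.3 on the PBS arrays. The groups overlapped for Il1rap and the first of Il1r2, and for the second each TGFb2 array lay above each PBS array. The dim probe set of Il18r1, the binding chain for interleukin 18, had 1.1 and 1.8 on the TGFb2 arrays and 11.3 and 7.3 on the PBS arrays. It did not pass when dim probe sets were also fitted (limma adjusted p = 0.32).

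Csf3r, the receptor through which granulocyte colony-stimulating factor acts on neutrophils and monocytic cells, gave the largest difference among the receptor probe sets, and its 3 probe sets disagreed. The second probe set had signals of 205.2 and 216.2 on the TGFb2 arrays, against 57.0 and 47.2 on the PBS arrays. It rose by 1.75 ± 0.19 (SE, limma adjusted p = 0.0148), with a 95% interval of 1.32 to 2.18. The third probe set, which the annotation derives from the same sequence entry as the second, had 115.5 and 74.2 on the TGFb2 arrays and 91.2 and 92.8 on the PBS arrays. The first probe set, from another entry, had 159.9 and 201.5 on the TGFb2 arrays and 214.9 and 188.0 on the PBS arrays. The third and the first differed by 0.01 (95% interval -0.52 to 0.55) and by -0.15 (-0.59 to 0.29), and neither interval reaches that of the second; the difference between probe sets was not tested. The mean of the 3 did not pass (0.54, limma adjusted p = 0.22), so a change of Csf3r rests on 1 of its 3 probe sets. Without TGFb2 replicate 1 or 2 the call of the second probe set was lost (limma adjusted p = 0.060 and 0.056). The summed neutrophil markers were 161.2 to 199.5 on the TGFb2 arrays and 154.6 to 189.7 on the PBS arrays. Of their 2 tested genes 0 passed, and Mpo, Ngp, Ltf, Mmp8 and Cxcr2 were dim. Camp, 1 of the 2 tested, had 94.3 and 82.4 on the TGFb2 arrays against 74.8 and 63.4 on the PBS arrays, without overlap. The other, Elane, overlapped at 33.1 and 38.4 on the TGFb2 arrays and 32.9 and 34.6 on the PBS arrays. The part of neutrophils in the Csf3r values was not tested.

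Il4ra, the chain that interleukins 4 and 13 share and through which they drive alternative activation of macrophages, was higher with TGFb2 in 1 of its 2 probe sets, short of the threshold. The first probe set had signals of 150.5 and 132.1 on the TGFb2 arrays, against 72.5 and 61.9 on the PBS arrays, without overlap. It differed by 0.93 ± 0.19 (SE, limma adjusted p = 0.075), with an unadjusted 95% interval of 0.48 to 1.37. The second probe set, close to the dim level, had 29.3 and 23.1 on the TGFb2 arrays and 28.5 and 22.9 on the PBS arrays, a difference of 0.02 (95% interval -0.63 to 0.66). The mean of the 2 differed by 0.47 (limma adjusted p = 0.44). The partner chain for interleukin 13, Il13ra1, had 48.0 and 50.0 on the TGFb2 arrays and 40.4 and 50.3 on the PBS arrays, and Il13ra2, another interleukin 13 receptor with a short tail, was dim at 1.7 and 1.9 on the TGFb2 arrays and 0.6 and 1.1 on the PBS arrays.

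**Figure D2:**
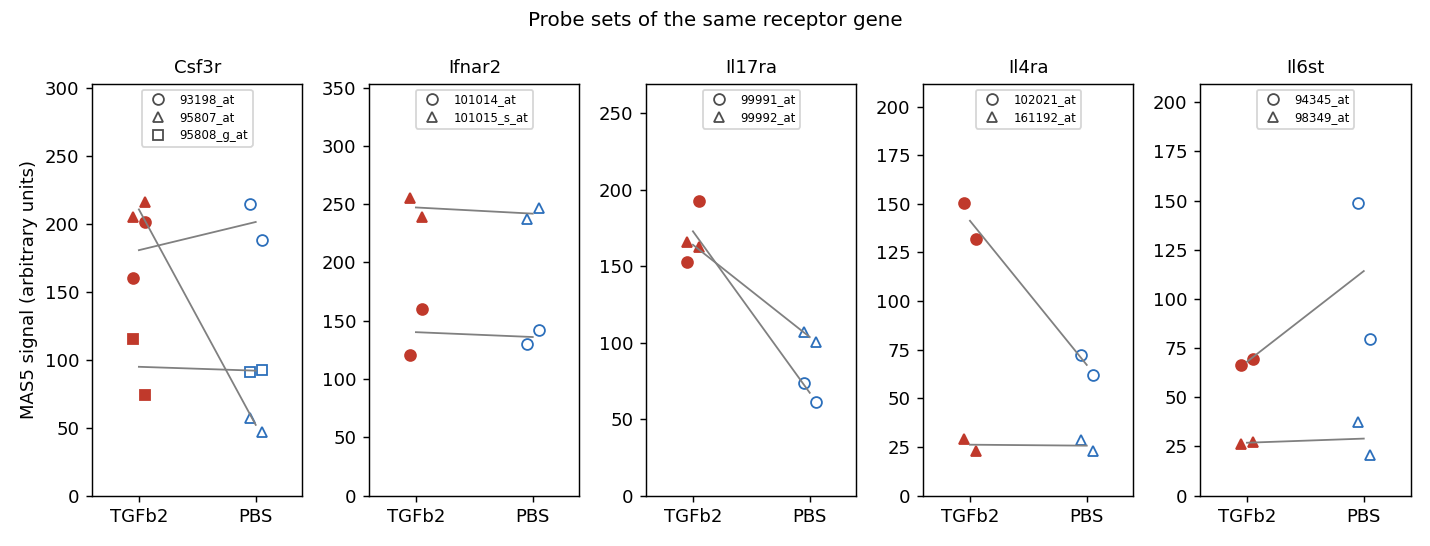
MAS5 signals (vertical, linear from 0) of the 5 receptor genes with more than 1 tested probe set, with TGFb2 arrays on the left (filled) and PBS arrays on the right (open), 1 symbol per probe set and grey lines between the group means. The Il17ra probe sets shift the same way, the group means of Ifnar2 lie close together, and the probe sets of Csf3r, Il4ra and Il6st differ among themselves.

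The stretches upstream of Csf3r and Il4ra are shown because these genes carry the largest difference and the most nearly called further one, and because Il17ra is not in the RefSeq promoter table used here. The table holds 26 of the 33 receptor genes. The 250 bases before the start site are printed 5′ to 3′ in GRCm38.p6, for Csf3r at chr4:126024409-126024658 and for Il4ra at chr7:125552021-125552270, both on the plus strand. That of Il4ra lies just outside the annotated gene, and that of Csf3r lies inside the annotated span of the gene (126023441 to 126044975), upstream of the start site in the table. Capitals mark matches on either strand to GAGGAA, the core of the site bound by the myeloid factor PU.1, to CAGAC, the Smad box of TGF-beta signalling, or to TTCNNNGAA, the core of STAT sites, also searched with 4 N in place of 3.
Csf3r: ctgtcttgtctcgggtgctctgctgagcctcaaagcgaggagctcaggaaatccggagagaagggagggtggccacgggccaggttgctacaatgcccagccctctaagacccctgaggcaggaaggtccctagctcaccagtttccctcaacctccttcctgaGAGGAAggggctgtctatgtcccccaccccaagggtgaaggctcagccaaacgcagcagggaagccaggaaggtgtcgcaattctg
Il4ra: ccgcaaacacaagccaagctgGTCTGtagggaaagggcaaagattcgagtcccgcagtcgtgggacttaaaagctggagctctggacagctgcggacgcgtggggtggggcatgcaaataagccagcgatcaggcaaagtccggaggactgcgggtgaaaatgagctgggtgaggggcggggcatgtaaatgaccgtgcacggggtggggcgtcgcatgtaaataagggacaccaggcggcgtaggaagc
The Csf3r stretch holds 1 GAGGAA, starting 86 bases before the start site, and 0 of the other motifs. The Il4ra stretch holds 1 CAGAC on the minus strand, 229 bases before the start site, and 0 of the others. Over all 32851 stretches of this length in the table, 23.3% hold GAGGAA, 42.2% CAGAC, 7.02% TTCNNNGAA and 5.85% its form with 4 N. Of the 32 such stretches of receptor genes, 31.2% hold GAGGAA, 31.2% CAGAC, 18.8% TTCNNNGAA and 9.38% its form with 4 N. The stretch of Ifngr1, which was lower with TGFb2 without passing, also holds a CAGAC, 249 bases before the start site. That of Il6st, likewise lower in 1 probe set without passing, holds 0 of the motifs. The 2 printed matches do not overlap another of these motifs, and a match in letters is not evidence of binding.

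Among the other chains that share the gamma-chain family, Il2rb, the beta chain for interleukins 2 and 15, was without overlap and did not pass. It had signals of 38.7 and 35.8 on the TGFb2 arrays, against 13.6 and 20.6 on the PBS arrays, where its mean was below the dim level. The difference was 0.71 ± 0.28 (SE, limma adjusted p = 0.38). Il2rb is known from NK and T cells, and the part of these cells in its values was not tested. Summed NK-cell markers were 57.4 to 82.3 on the TGFb2 arrays and 32.3 to 54.7 on the PBS arrays, and summed T-cell markers were 84.4 to 87.9 on the TGFb2 arrays and 57.0 to 106.0 on the PBS arrays. The NK-cell sums did not overlap and the T-cell sums did. The defining T-cell genes Cd3e, Cd3d and Cd3g and all 5 NK-cell genes were dim. Prf1 had 24.7 and 11.3 on the TGFb2 arrays against 5.4 and 4.6 on the PBS arrays. Klrk1 and Ncr1 were also higher with TGFb2 without overlap, and Gzma and Klrd1 overlapped. Of all dim probe sets, 21.9% were higher with TGFb2 without overlap. Cd2, a T- and NK-cell surface protein, was dim, with 29.4 and 22.7 on the TGFb2 arrays against 5.5 and 5.8 on the PBS arrays. Cd28, another dim gene of the T-cell list, ran the other way, with 9 and 3.7 for TGFb2 against 20 and 12 for PBS. Cd4, the 1 tested gene of that list, overlapped at 14.3 and 39.6 on the TGFb2 arrays and 52.8 and 17.3 on the PBS arrays. Il7r, the interleukin 7 receptor, had 1599 and 1544 on the TGFb2 arrays and 2060 and 1474 on the PBS arrays, a difference of -0.15 (95% interval -0.55 to 0.26). Il15ra, which presents interleukin 15, had 69.0 and 92.3 on the TGFb2 arrays but 16.6 and 145.6 on the PBS arrays, so its interval of -1.07 to 1.90 leaves the difference unresolved. Il2ra, the alpha chain of the high-affinity interleukin 2 receptor, was dim, with 12.9 and 1.3 on the TGFb2 arrays and 10.6 and 1.4 on the PBS arrays.

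Receptors for the growth factors of macrophages did not pass. Csf1r, on which macrophage survival depends, had signals of 1359.9 and 2070.8 on the TGFb2 arrays, against 1036.9 and 1256.5 on the PBS arrays, without overlap. The difference was 0.55 ± 0.21 (SE, limma adjusted p = 0.37) and ran from 0.25 to 0.85 with 1 array left out. Another, dim probe set of Csf1r had 8.5 and 0.5 on the TGFb2 arrays and 6.9 and 11.7 on the PBS arrays. Csf2ra, the binding chain for granulocyte-macrophage colony-stimulating factor, had 1200.4 and 1296.4 on the TGFb2 arrays and 1206.2 and 1137.4 on the PBS arrays. Its difference of 0.09 had a narrow interval of -0.22 to 0.40. The beta chains were spread between the TGFb2 arrays rather than between groups. Csf2rb, the signalling chain shared by the receptors for interleukins 3 and 5 and granulocyte-macrophage colony-stimulating factor, had 220.4 and 830.1 on the TGFb2 arrays and 406.9 and 545.1 on the PBS arrays. Csf2rb2, the interleukin 3-specific beta chain of mice, had 700.6 and 1139.9 on the TGFb2 arrays and 989.8 and 1000.7 on the PBS arrays. In both chains the PBS arrays lay between the TGFb2 arrays, and leaving out TGFb2 replicate 1 turned the differences of -0.12 and -0.15 into 0.80 and 0.19. These near-identical genes can share probes, so their values are less certain, and the second, dim probe set of Csf2rb2 had 11.1 and 5.0 on the TGFb2 arrays and 10.1 and 0.4 on the PBS arrays. Il3ra, the binding chain for interleukin 3, had 272.9 and 206.0 on the TGFb2 arrays and 248.4 and 179.3 on the PBS arrays, and Il5ra, known from eosinophils and B-1 cells, was dim at 0.3 and 3.6 on the TGFb2 arrays and 4.5 and 2.7 on the PBS arrays.

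**Figure D3:**
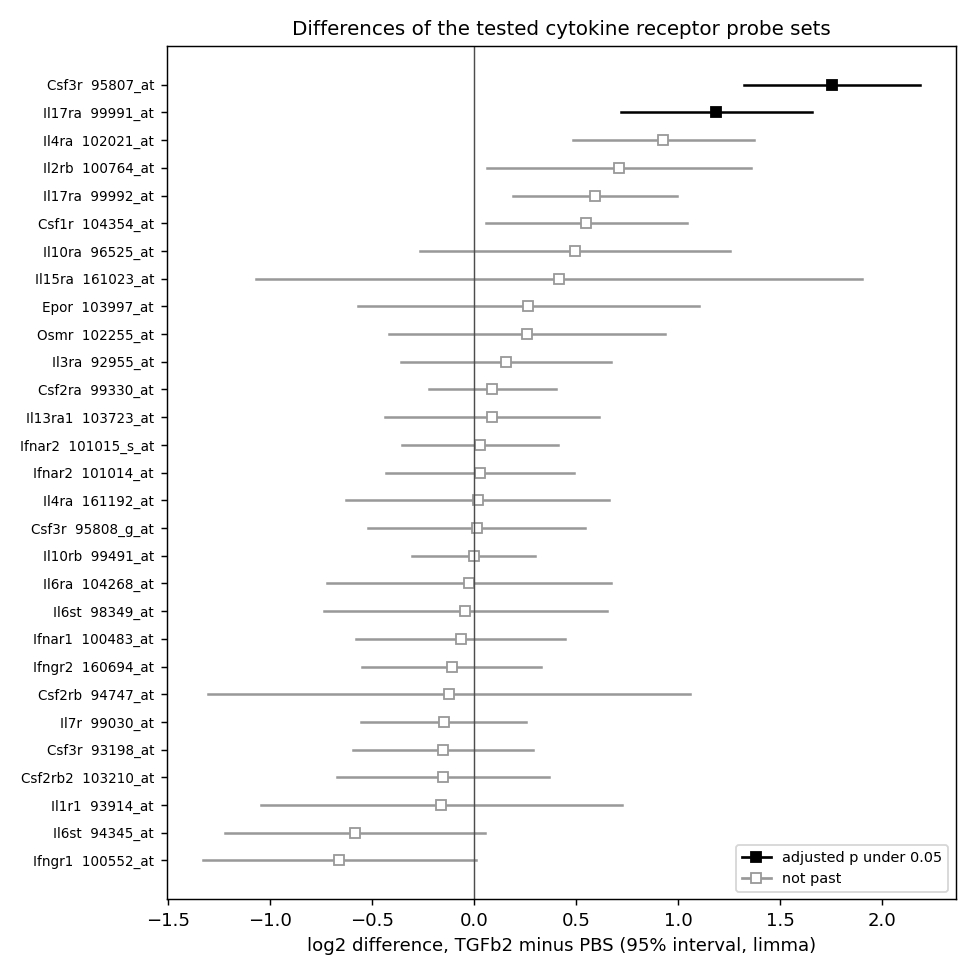
Log2 difference, TGFb2 minus PBS (horizontal), of the 29 tested receptor probe sets (rows, ordered by the difference), with 95% limma intervals not adjusted for the number of tests. Filled squares mark the 2 probe sets past an adjusted p of 0.05, the second of Csf3r and the first of Il17ra, and open squares those not past.

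Il6st, the gp130 chain through which interleukin 6, interleukin 11, leukaemia inhibitory factor and oncostatin M signal, was lower without overlap in 1 of its 2 probe sets and did not pass. The first probe set had signals of 66.4 and 69.7 on the TGFb2 arrays, against 148.7 and 79.6 on the PBS arrays, a difference of -0.58 ± 0.27 (SE, limma adjusted p = 0.47). The second probe set had 26.4 and 27.4 on the TGFb2 arrays and 37.5 and 20.5 on the PBS arrays, where the groups overlapped. The size of the first difference moved with PBS replicate 1, the higher of the PBS arrays, and was -0.19 without it. Il6ra, the binding chain for interleukin 6, had 49.0 and 99.4 on the TGFb2 arrays and 62.7 and 82.4 on the PBS arrays, and the oncostatin M receptor Osmr had 43.0 and 24.9 on the TGFb2 arrays and 25.6 and 24.7 on the PBS arrays. Epor, the erythropoietin receptor, had 72.6 and 55.4 on the TGFb2 arrays and 80.9 and 29.5 on the PBS arrays. The groups overlapped for all 3. The 5 probe sets of Lifr, the leukaemia inhibitory factor receptor, the 2 of the leptin receptor Lepr, the 2 of Il12rb1 and the 1 of Il12rb2, the chains of the interleukin 12 receptor, were dim, with signals from 0.9 to 26.3. Lepr had 8.0 and 2.5 (the first) and 1.3 and 0.9 (the second) on the TGFb2 arrays, and 3.8 and 3.3 (the first) and 1.1 and 0.9 (the second) on the PBS arrays. Il12rb1 had 2.2 and 1.2 (the first) and 7.6 and 5.6 (the second) on the TGFb2 arrays, and 2.0 and 1.0 (the first) and 5.6 and 5.5 (the second) on the PBS arrays. Il12rb2 had 3.0 and 17.5 on the TGFb2 arrays and 5.7 and 21.3 on the PBS arrays, so the groups overlapped for all of these probe sets. Of the Lifr probe sets, the third lay higher on the TGFb2 arrays (26.3 and 20.0, against 10.5 and 14.4 for PBS) and the fifth lower (2.6 and 2.0, against 9.1 and 3.5 for PBS). The others overlapped. The first of Lifr had 14.1 and 14.0 on the TGFb2 arrays and 17.4 and 6.0 on the PBS arrays, the second 19.5 and 6.1 on the TGFb2 arrays and 12.6 and 12.8 on the PBS arrays, and the fourth 12.5 and 7.5 on the TGFb2 arrays and 13.2 and 8.0 on the PBS arrays.

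The class II receptors were all above the dim level, and 0 of their 7 probe sets passed. Ifngr1, the binding chain for interferon gamma, had signals of 91.9 and 44.5 on the TGFb2 arrays, against 119.2 and 103.6 on the PBS arrays. Each TGFb2 array lay below each PBS array, and the difference was -0.66 ± 0.29 (SE, limma adjusted p = 0.43), or -0.24 without TGFb2 replicate 2. Its partner Ifngr2 had 215.9 and 263.6 on the TGFb2 arrays and 285.3 and 234.7 on the PBS arrays, so it overlapped. For the type I interferon receptor chains the groups overlapped. Ifnar1 had 148.0 and 218.5 on the TGFb2 arrays and 205.1 and 174.6 on the PBS arrays. Its difference was -0.07, with an interval of -0.58 to 0.45. The first probe set of Ifnar2 had 120.3 and 160.1 on the TGFb2 arrays, against 129.7 and 142.4 on the PBS arrays. The second had 255.0 and 239.3 on the TGFb2 arrays, against 237.4 and 246.3 on the PBS arrays. Both of them differed by 0.03, with intervals of -0.43 to 0.49 and -0.35 to 0.41. Of the interleukin 10 receptor, the binding chain Il10ra had 47.8 and 88.1 on the TGFb2 arrays and 30.2 and 57.0 on the PBS arrays (difference 0.50, 95% interval -0.26 to 1.26). The Il10ra difference was 0.14 without TGFb2 replicate 2, 0.16 without PBS replicate 1, 0.83 without PBS replicate 2 and 0.85 without TGFb2 replicate 1. The shared chain Il10rb had 2387.6 and 2406.2 on the TGFb2 arrays and 2608.6 and 2210.0 on the PBS arrays. The interval for Il10rb, -0.30 to 0.30, was the narrowest of the tested receptors.

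The 10 genes with dim probe sets alone were Il2ra, Il13ra2, Il5ra, Il12rb1, Il12rb2, Lepr, Lifr, Il18r1, Il1r2 and Il1rap. Of all 19 dim probe sets, 1 (the third of Lifr) had any array above the level. Groups did not overlap for 5 of the 19 (26.3%), 3 with TGFb2 above and 2 below, against 33.0% of all dim probe sets (21.9% above and 11.1% below). When dim probe sets were fitted too, their log2 differences ran from -0.56 to 0.47 and their lowest limma adjusted p was 0.32, that of Il18r1.

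Genes around the receptors were counted by their brightest tested probe set. Over all 5639 genes counted in this way, 1.19% passed in limma, 0.869% higher and 0.319% lower, with a median difference of 0.0027. Among the ligands of these receptors, 24 of 28 listed were measured, 18 were dim and 6 were tested, of which 1 fell, 0 rose and 5 did not pass. The median over these 6 genes was 0.07 and turned with single arrays, from -0.26 without TGFb2 replicate 1 to 0.23 without TGFb2 replicate 2. The gene that fell was Il1rn, the antagonist that occupies the interleukin 1 receptor without activating it, with 710.6 and 961.9 on the TGFb2 arrays against 1969 and 2343 on the PBS arrays (-1.36 ± 0.18 SE, limma adjusted p = 0.0241). Csf3, the ligand of Csf3r, had 114.6 and 61.0 on the TGFb2 arrays and 60.7 and 52.9 on the PBS arrays (limma adjusted p = 0.59), and Il17a, a ligand of Il17ra, and Il4 were dim.

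The signalling genes downstream gave 0 calls in limma. Of 9 tested Janus kinase and STAT genes the median difference was -0.07, and by brightest probe set the largest differences were those of Stat5b and Irf9. Stat5b had 6.2 and 40.7 on the TGFb2 arrays and 43.6 and 41.2 on the PBS arrays, so its TGFb2 mean was below the dim level through replicate 1. Irf9, the interferon-activated partner of STAT factors, had 260.0 and 323.2 on the TGFb2 arrays and 201.7 and 243.3 on the PBS arrays. A less bright probe set of Stat3 differed by 0.53 without overlap (limma adjusted p = 0.37), and its brightest by -0.14. Of 11 tested inhibitors the median was 0.03, and it was negative without any 1 of the 4 arrays (-0.19 to -0.0088). The largest in size were Socs3, a feedback inhibitor of gp130 receptors, at 0.40, and Pias2, a protein inhibitor of activated STAT, at 0.37. Close to them in size but negative were Ptpn2 and Ptpn6 (both -0.37), Pias1 (-0.36) and Cbl (-0.35), each with TGFb2 arrays below PBS arrays. Of 8 tested adaptors and kinases of interleukin 1 receptors the median was -0.05, led by Myd88 at 0.31 and Traf6 at 0.23. Traf3ip2, 1 of these 8, which links Il17ra to its pathway, differed by -0.13 (limma adjusted p = 0.91). Of 9 early target genes of STAT factors the median was -0.04, with Myc at -0.57 and Bcl6 at 0.44 (limma adjusted p = 0.47 and 0.48). The TGFb2 mean of Myc was below the dim level, with 27.0 and 18.6 on the TGFb2 arrays and 43.9 and 37.7 on the PBS arrays. A less bright probe set of Ccnd1 differed by -1.19 without overlap (limma adjusted p = 0.29), and its brightest by -0.04. The TGFb2 mean of that less bright probe set was below the dim level.

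Other receptors of the same families gave 0 calls among 5 tested in limma, with 4 dim and a median of 0.02. The largest difference was that of Il18rap, the accessory chain for interleukin 18, with signals of 44.1 and 33.5 on the TGFb2 arrays against 14.9 and 13.3 on the PBS arrays (0.88 ± 0.28 SE, limma adjusted p = 0.26). Its PBS mean was below the dim level, so it was tested through the TGFb2 arrays. Its partner Il18r1 was dim and lay lower on the TGFb2 arrays, as given above. Ebi3, a soluble receptor-like subunit of interleukins 27 and 35, had 116.5 and 133.4 on the TGFb2 arrays and 170.9 and 200.1 on the PBS arrays (-0.52, limma adjusted p = 0.32).

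**Figure D4:**
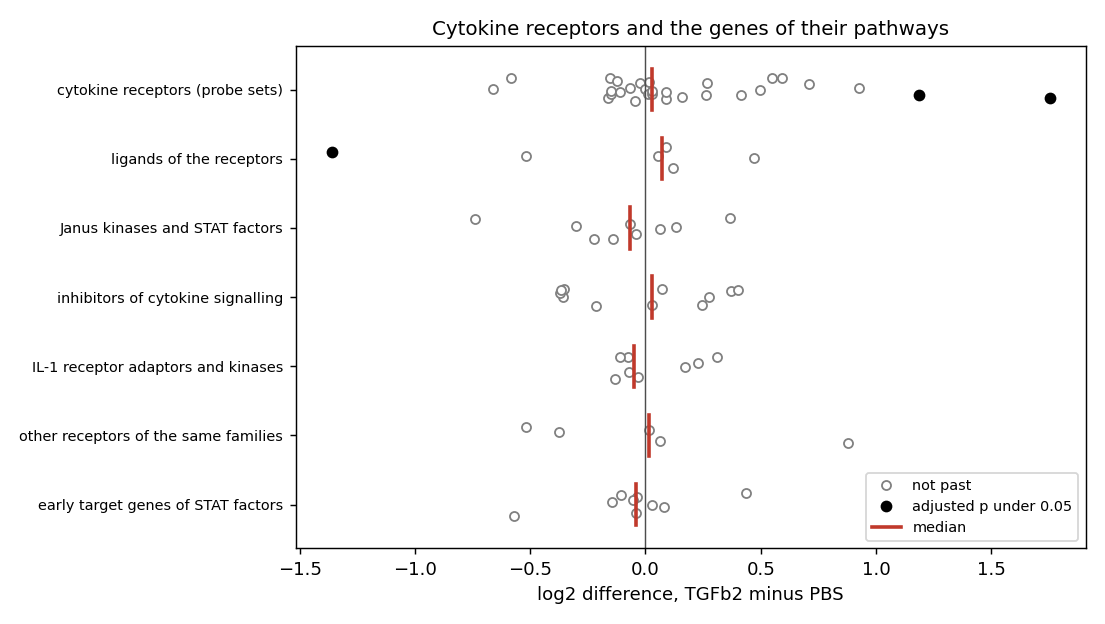
Log2 difference, TGFb2 minus PBS (horizontal), of the 29 tested receptor probe sets and of the tested genes of 6 lists around them (rows, 1 point per probe set or gene, scattered vertically for clarity). Red bars are medians, between -0.07 and 0.07 in all 7 rows, and filled points are the 3 past an adjusted p of 0.05, of which Il1rn is the 1 below 0.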

How the data were processed

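RNA was hybridised as biotinylated cRNA to 4 Affymetrix arrays, 2 labelled TGFb2 and 2 labelled PBS. According to the submitters' processing notes the deposited intensities come from MAS5, and its version is not given in the sources used here. Detection calls were not used. Their 2% trimmed means were equal (150.1), so the deposited intensities were not scaled further. The 66 control probe sets were left out, and 10833 of the other 12422 had 1 gene symbol, 396 several and 1193 none. Symbols of all 33 receptor genes matched the GRCm38.p6 gene table. Probe sets with several symbols were tested and not named.

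Signals were taken to log2(signal + 15), so differences understate the change of dim genes. The 7453 probe sets at or above the 40th percentile entered a linear model in R 4.3.3 (limma 3.58.1, lmFit and eBayes with trend) of TGFb2 minus PBS. Two-sided p-values were adjusted over all of them by Benjamini-Hochberg, with calls made under 0.05. Residual degrees of freedom were 2 and prior ones 5.6. The script was checked on simulated data. An exact permutation test over 2 against 2 arrays cannot give a p below 0.333 and was not used. Precision is limited by the number of arrays. Alternatives changed the pseudocount, the filter, the trend or the normalization (quantile, cyclic loess), averaged the tested probe sets of a gene, added the replicate number as a block, or left out 1 array.

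Earlier results of these data were known when the members, the gene lists and the naming rule were chosen. The rule asks for signals on all arrays for receptor probe sets past the threshold, without overlap and differing by at least 0.4, of macrophage growth factor receptors or of genes with several probe sets; those of the other receptors were added. Of each list, the genes past the threshold are named, or otherwise the 2 with the largest difference. Other genes named besides these (Csf3, Traf3ip2, Il17a, Il4, Stat3, Ccnd1, Ptpn2, Ptpn6, Pias1, Cbl and the marker genes) were chosen after their values were seen.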

Additional observations from a re-analysis of the deposited data

How the results depend on the processing

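The main number of probe sets called, 88, was 57 without a pseudocount, 6 without the filter on dim probe sets, 16 without the intensity trend, 320 with the replicate number as a block and 11 to 42 with 1 array left out. The number of receptor probe sets called, 2, was 1, 0, 1 and 4 under the same settings and 0 to 1 with 1 array left out, the array left alone being taken to have the spread of the other pair. The number of genes called in the lists around the receptors, 1, was 0 without the filter and without the trend and 0 to 1 with 1 array left out. Deviations of same-numbered arrays correlated at 0.149 over 2 pairs, which does not show that the numbers pair the arrays; the block added calls for the first probe set of Il4ra (adjusted p = 0.0132, limma) and Csf1r (0.0449), with the same differences. Outside leave-one-out, the call of the second probe set of Csf3r was lost without the filter (adjusted p = 0.084, limma), and that of the first probe set of Il17ra without a pseudocount (0.053), without the filter (0.17) and without the trend (0.095). Both kept a positive difference in all 12 alternatives, from 1.27 to 2.02 and from 0.87 to 1.36. Quantile normalization and cyclic loess turned the near-zero difference of the second probe set of Il4ra to -0.037 and -0.021. Of the 29 tested receptor probe sets, 19 changed sign, 0 of them called, and 10 did not; for the 8 without overlap, leaving out 1 array cannot change the sign. With 1 array left out Csf2rb ran from -1.05 to 0.80, Csf2rb2 from -0.50 to 0.19, Csf3r from -0.30 to 0.0031 (the first) and -0.26 to 0.29 (the third), Epor from -0.29 to 0.82, Ifnar1 from -0.33 to 0.19, Ifnar2 from -0.16 to 0.21 (the first) and -0.014 to 0.072 (the second), Ifngr2 from -0.25 to 0.025, Il10rb from -0.12 to 0.12, Il13ra1 from -0.029 to 0.21, Il15ra from -0.76 to 1.59, Il1r1 from -0.66 to 0.34, Il3ra from -0.062 to 0.38, Il4ra from -0.092 to 0.13 (the second), Il6ra from -0.44 to 0.40, Il6st from -0.33 to 0.24 (the second), Il7r from -0.39 to 0.091 and Osmr from -0.0089 to 0.53. List medians also turned: with 1 array left out that of the ligands ran from -0.26 to 0.23, of adaptors from -0.089 to 0.12, of other receptors from -0.21 to 0.070 and of STAT targets from -0.13 to 0.038, while a stricter filter (60th percentile), which tests fewer genes, gave -0.23 for ligands, -0.18 for other receptors and 0.069 for adaptors. The cause of the other changes was not tested.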
